A study of Saccharomyces cerevisiae with 9 samples.

Results

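In budding yeast cells that lacked Ioc3, 947 nucleosomes had less precise positions than in wild type (WT). They are called blurred here, and they were chosen by measured values from 51917 nucleosome calls paired between the strains. A call was eligible when its occupancy was 20 or more in both strains, which held for 45993 calls. A blurred call was an eligible one whose standard deviation (SD) of the dyads, the spread in bp of the fragment centres around the call, was at least 10 bp higher in ioc3Δ than in WT. The blurred calls were 2.06% of the eligible ones. The opposite change, an SD lower by 10 bp or more, was found in 74 calls, 0.161% of the eligible ones. Because the SD chose the members, the SDs, shifts and occupancies below, which come from the same contrast, describe the set and test nothing. Places in genes and base composition were not used in the choice.

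A nucleosome wraps DNA around a histone octamer, and its dyad is the midpoint of the wrapped DNA. In yeast genes nucleosomes form a regular array that is anchored near the promoter and loses regularity further downstream. Remodelers of the ISWI family slide nucleosomes and set the distances between them. ISW1a is the ISWI complex made of the Isw1 ATPase and Ioc3, and it contacts the linker DNA through its HLB domain. A well-positioned nucleosome has nearly the same dyad in every cell and a low SD, whereas a fuzzy one occupies many alternative dyads across the population.

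Micrococcal nuclease sequencing (MNase-seq) was carried out on BY4742 strains grown in rich medium, with 3 samples each of WT, ioc3Δ (the IOC3 deletion) and ioc3ΔcHLB, whose Ioc3 has a shortened HLB domain. The labels give every strain a FLAG tag, ioc3Δ included, while the methods place FLAG on Ioc3 and its shortened form. Chromatin was fixed with formaldehyde before digestion, and mononucleosomal DNA was sequenced from both ends. The deposited calls were made on the 3 merged samples of a strain, so each value below is 1 merged value per strain and the spread between samples is unknown. As a check of the labels, the 7 calls in IOC3 held 0.574% of their WT occupancy in ioc3Δ, and none of them was eligible. The table labelled ioc3ΔcHLB also had almost no signal there, with 0.680% over 8 calls, although its label implies that most of the gene is present. It is therefore named by its label, was set beside ioc3Δ at the end only and was not taken as independent. The calls used held 43911516 fragments in WT and 35955477 in ioc3Δ, as recovered from the steps in the occupancies. An occupancy of 20 stood for 145 fragments in WT and 101 in ioc3Δ.

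The DNA under 6 blurred nucleosomes is printed to show the places to which the values below refer. The windows are 150 bases centred on the WT dyad and read along the gene, from RefSeq R64, the same build as sacCer3. IRE1, PKH1 and YFL040W held the largest increases in SD, with dyads that moved by about the same distance. RTC2 and KRE5 had large increases with dyads that moved by 4 and 1 bp. DDL1 was the gene with the most blurred calls. The windows are chrVIII:260902-261051 on the minus strand for IRE1, chrIV:1433714-1433863 on the minus strand for PKH1, chrVI:51800-51949 on the plus strand for YFL040W, chrII:536894-537043 on the plus strand for RTC2, chrXV:950340-950489 on the plus strand for KRE5 and chrXV:375407-375556 on the minus strand for DDL1, each between the start and stop codon. Capitals mark the stretch from the dyad in WT to the dyad in ioc3Δ, both included, so a long run of capitals is a dyad that moved far.
IRE1: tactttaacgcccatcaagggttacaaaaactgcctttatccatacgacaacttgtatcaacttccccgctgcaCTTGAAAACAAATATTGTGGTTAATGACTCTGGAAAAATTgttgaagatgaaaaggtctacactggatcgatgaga
PKH1: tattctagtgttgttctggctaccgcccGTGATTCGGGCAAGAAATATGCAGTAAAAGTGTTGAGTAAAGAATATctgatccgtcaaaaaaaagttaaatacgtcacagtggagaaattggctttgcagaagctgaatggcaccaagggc
YFL040W: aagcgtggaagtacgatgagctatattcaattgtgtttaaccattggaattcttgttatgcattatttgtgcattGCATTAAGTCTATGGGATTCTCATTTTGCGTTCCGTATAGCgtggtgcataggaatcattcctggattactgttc
RTC2: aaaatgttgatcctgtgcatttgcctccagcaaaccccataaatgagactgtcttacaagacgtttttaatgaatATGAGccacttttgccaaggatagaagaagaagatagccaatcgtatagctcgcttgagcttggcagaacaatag
KRE5: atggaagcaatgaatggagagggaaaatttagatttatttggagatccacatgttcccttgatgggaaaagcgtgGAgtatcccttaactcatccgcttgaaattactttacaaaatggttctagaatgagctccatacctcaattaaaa
DDL1: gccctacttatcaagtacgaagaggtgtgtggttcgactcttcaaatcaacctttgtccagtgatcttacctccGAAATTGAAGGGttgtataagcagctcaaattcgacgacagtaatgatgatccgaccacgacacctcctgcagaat

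The capitals covered 40, 47 and 41 bases in IRE1, PKH1 and YFL040W, but 5 bases in RTC2, 2 in KRE5 and 12 in DDL1. In IRE1, YFL040W, RTC2, KRE5 and DDL1 the dyad of ioc3Δ lay downstream of that of WT, and in PKH1 upstream. An unbroken run of 6 A or 6 T was found in the PKH1 window only. The GC content of the windows was 37.3% in KRE5, 38.0% in YFL040W, 38.7% in IRE1, 40.7% in RTC2, 42.0% in PKH1 and 45.3% in DDL1.

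The blurred nucleosomes were not the fuzziest ones of WT. Their WT SD had a median of 23.1 bp (interquartile range 19.8 to 26.7, lowest 11.1, highest 37.3), against 25.5 bp (19.6 to 31.8) over all eligible calls. In ioc3Δ their SD was 35.1 bp (31.6 to 38.6, highest 51.1), against 28.6 bp over all eligible calls. Over the genome they thus went from slightly sharper than the typical call to fuzzier than it. The SD increase had a median of 11.4 bp (10.6 to 12.7), and 60 calls gained 15 bp or more. All eligible calls together gained a median of 2.32 bp (0.263 to 4.56), so the whole distribution was higher in ioc3Δ. Measured from that median, 275 calls lay 10 bp or more above it and 240 lay 10 bp or more below it. Over the whole genome the far ends on both sides were therefore of similar size once the general rise was taken off, and the places described below were where they differed. That centring was chosen after the data were seen.

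The increase could be set against counting error, though not against the spread between samples. A blurred call rested on a median of 368 fragments in WT and 177 in ioc3Δ, against 465 and 282 for all eligible calls. The counting error of the SD difference, from the usual formula for the error of an SD, had a median of 2.02 bp in blurred calls and 1.45 bp in all eligible calls. The largest such error in a blurred call was 3.88 bp, so the limit of 10 bp itself puts every increase above its counting error, and nothing is read from that. These errors cover the drawing of fragments only. The calls nearest to the limit were FET5 (10.003 bp) and AKL1 (10.004 bp) inside it and MRP51 (9.998 bp) and TFB1 (9.996 bp) outside it, so membership at the edge separates calls with nearly the same values.

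**Figure D1:**
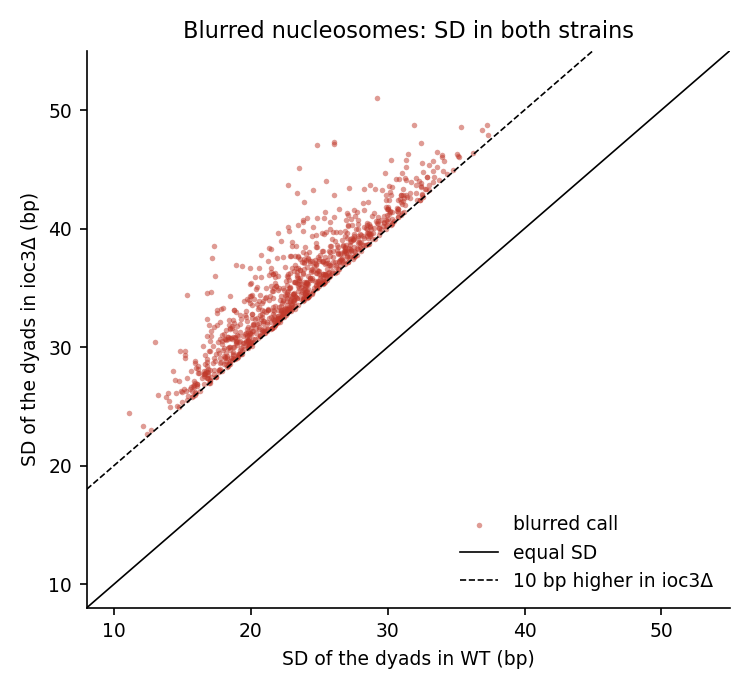
SD of the dyads in WT (x axis, bp) and ioc3Δ (y axis, bp) for each of the 947 blurred calls, with lines at equal SD and at 10 bp above it. The points fill a band just above the limit, with WT SDs from 11.1 to 37.3 bp and few points far above it.

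The share of blurred calls differed between classes of WT SD. It was 0.547% of the calls under 15 bp, 2.65% from 15 to 20 bp, 3.76% from 20 to 25 bp, 2.49% from 25 to 30 bp and 0.667% above that. The largest share was thus in the class from 20 to 25 bp. The WT SD is part of the rule that chose the members, so these shares describe the set and test nothing. In the 74 calls with an SD lower by 10 bp or more, the median WT SD was 40.1 bp. The highest SD of any eligible call was 54.8 bp in WT and 58.0 bp in ioc3Δ. The share also fell with WT occupancy, from 3.06% in the lowest of 4 equal classes of eligible calls through 2.36% and 1.79% to 1.03% in the highest. Fewer fragments and larger counting errors go with low occupancy, and their part in these shares was not tested.

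As with the other eligible calls, most blurred nucleosomes lay in genes. The WT dyad of 902 of them (95.2%, against 92.0% of the other eligible calls) lay between the start and stop codon of 1 protein-coding gene, 2 lay in a pair of overlapping genes and 43 lay outside coding sequence. They were spread over 722 of the 5813 genes with an eligible call. A single blurred call was held by 581 genes, 2 by 108, 3 by 29, 4 by 3 and 6 by 1. All 16 chromosomes held some, from 1.18% of the eligible calls of chromosome XII to 3.07% of those of chromosome I. Within 20 kb of a chromosome end lay 30 (3.17%, against 3.64% of the other eligible calls), and within 20 kb of a centromere 38 (4.01% against 5.27%).

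Among positions numbered along genes, blurring was least frequent at the first nucleosome and most frequent a few nucleosomes in. Positions were counted from the start codon in genes longer than 560 bp, and +1 was the call that came first in a window reaching from 60 bp before that codon to 120 bp past it. At +1, 26 of 4463 eligible calls were blurred (0.583%), and at +2 55 of 4391 (1.25%). At +3 there were 134 of 4084 (3.28%), at +4 164 of 3602 (4.55%), at +5 117 of 2834 (4.13%) and at +6 85 of 2150 (3.95%). The shares then fell through 3.05% at +7 and 2.43% at +8 to 1.45% from +12 on. The 95% exact binomial intervals of +1 (0.381 to 0.852%) and +4 (3.90 to 5.29%) do not overlap. They cover counting only and treat calls as independent, which calls of the same libraries are not.

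**Figure D2:**
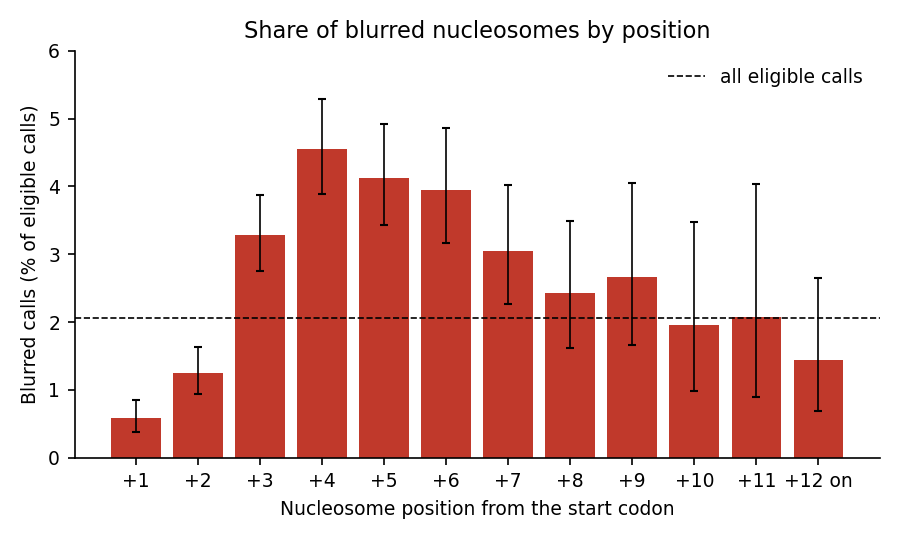
Share of eligible calls that were blurred (y axis, %) by position from the start codon (x axis), with exact 95% binomial intervals as bars and the share over all eligible calls (2.06%) as a dashed line. The bars climb from 0.583% at +1 to 4.55% at +4 and fall back to the dashed line by +10.

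A similar picture came from distance alone, with the lowest share far from the start codon. The median distance of a blurred dyad from the start codon was 656 bp (434 to 1001), against 784 bp for all eligible calls in 1 gene. In the first 150 bp, 0.695% of eligible calls were blurred, from 450 to 600 bp 4.46%, and beyond 3000 bp 0.538%. Within 150 bp of the stop codon the share was 1.11%. The share outside coding sequence was 1.29% of 3321 calls, and among the calls in coding regions that received no number it was 1.17% of 17470. Low shares were thus found at both ends of genes and deep inside long ones.

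WT fuzziness rises along genes, from a median SD of 17.5 bp at +1 to 22.9 bp at +4 and 26.2 bp at +6 over the eligible calls, so position was also compared at equal WT SD. Among calls with a WT SD from 20 to 25 bp, the blurred share was 0.722% at +1, 2.09% at +2, 3.53% at +3, 6.36% at +4, 5.61% at +5, 5.01% at +6 and 4.97% at +7. In this class the first nucleosome thus had the lowest share. Among calls over 30 bp the order was not kept, with 1.13% at +1 (3 calls), 0 of 321 calls at +2, 1.67% at +3, 1.42% at +4 and 0.550% at +5 (3 calls). The first nucleosome also had a lower share than +4 at both ends of the range of WT occupancy. In the lowest of the 4 classes of WT occupancy 2.09% of +1 calls and 7% of +4 calls were blurred, and in the highest 0.252% and 2.08%. In that highest class the shares at +3, +5 and +6 were 2.40%, 2.47% and 2.48%, so +4 was not the highest there.

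Without centring, 500 calls at +3 to +6 were blurred and 13 had an SD lower by 10 bp or more. After centring on the general rise of 2.32 bp the counts were more even, and a difference between places remained. The rise itself depended on the place. Its median over all eligible calls was 3.76 bp in the class from +3 to +6, but 1.81 bp for the first nucleosome. Centring on a single genome-wide value leaves this in the counts. How far it accounts for the difference between places was not tested. At +3 to +6, 167 of 12670 calls lay 10 bp or more above the median and 37 lay 10 bp or more below it. At +4 the counts were 57 and 10, at +1 7 and 8, at +2 14 and 16, at +7 9 and 4, and at +8 4 and 4. In all places outside +3 to +6 together they were 108 and 203. Calls far above the median thus outnumbered those far below it at +3 to +6 and, in small counts, at +7, and the pooled remainder went the other way.

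Individual nucleosomes show what the numbers stand for. The largest increase was at +5 of IRE1, the sensor of unfolded proteins in the endoplasmic reticulum, where the SD was 24.9 bp in WT and 47.0 bp in ioc3Δ, the occupancy 27.8 and 24.3, and the dyad 39 bp further downstream in ioc3Δ. At +4 of PKH1, a kinase related to mammalian PDK1, the SD went from 29.2 to 51.1 bp, the occupancy from 44.3 to 48.01, and the dyad lay 46 bp upstream. At +4 of YFL040W it went from 23.6 to 45.1 bp with a dyad 40 bp downstream and occupancies of 39.1 and 25.1. In these cases the centre of the call in ioc3Δ was displaced, though the paired calls still overlapped, and the SD was higher. The ioc3Δ calls of IRE1 and PKH1 stood 148 bp from the next call on either side, the shortest distance between calls of a strain. For YFL040W these distances were 177 and 176 bp. The ioc3Δ occupancies of IRE1 and YFL040W were not far above the minimum for eligible calls. Whether the placing of neighbouring calls set these dyads and SDs was not tested.

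Further large increases were found in genes of unrelated function. ACH1, which acts on acetyl-CoA, had SDs of 26.1 and 47.3 bp at +3, with occupancies of 112 and 75.3 and a dyad 13 bp downstream. SIS2, an inhibitory subunit of the Ppz1 phosphatase, had 26.1 and 47.1 bp at +6, and IQG1, the yeast IQGAP protein of cytokinesis, 22.7 and 43.7 bp at +5. PTP1, a tyrosine phosphatase, had 23.4 and 43.0 bp at +4 with a dyad 55 bp downstream. Most of the extreme calls thus lay from +3 to +6, as did the set as a whole. The other large increases were in MBA1 (17.3 to 38.5 bp, dyad 59 bp upstream), in MSK1, the mitochondrial lysyl-tRNA synthetase (17.2 to 37.5 bp), and in YOR011W-A (24.6 to 43.2 bp). They lay 510, 1191 and 164 bp from the start codon, in calls without a position number.

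A different kind of blurring was seen where the dyad hardly moved. At +5 of KRE5, which is needed for the synthesis of cell wall glucan, the SD rose from 15.3 to 34.4 bp while the dyad moved by 1 bp and the occupancy went from 73.6 to 24.9. At +6 of RCI50 it rose from 17.4 to 36.0 bp with a shift of 5 bp upstream and occupancies of 76.6 and 29.1. Here a sharp WT peak became low and broad around the same centre. The sharpest blurred nucleosomes of WT were at +3 of SSA1, an Hsp70 chaperone (11.1 to 24.4 bp), +3 of MEC1, the checkpoint kinase (12.1 to 23.3 bp), +3 of FIR1 (12.4 to 22.6 bp), +1 of EMP47 (12.7 to 23.0 bp) and +10 of AMA1, a meiotic activator of the anaphase-promoting complex (13.0 to 30.4 bp). SSA1 has near-identical sequence in SSA2, so its reads could be split between both genes.

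Some genes held several blurred calls along an array. DDL1 (YOR022C, chromosome XV, 373710 to 375857), which encodes a phospholipase, held 6 blurred calls among 13 eligible ones. Its +1 kept its SD, with 20.7 bp in WT and 21.0 bp in ioc3Δ. The SD then went from 23.1 to 34.0 bp at +2, 18.3 to 30.9 bp at +3, 24.0 to 34.7 bp at +4, 26.8 to 38.1 bp at +6 and 29.8 to 41.1 bp at +8, with 24.1 and 34.1 bp at +9. The last call, 28 bp before the stop codon, had the lowest SD of the gene in both strains (9.98 and 10.8 bp). The array of DDL1 was thus wider in the middle and held at both ends.

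RTC2 (YBR147W), a vacuolar amino acid transporter, had 3 blurred calls among 6. Its SD was 14.5 bp in WT and 18.6 bp in ioc3Δ at +1, 13.96 and 26.1 bp at +2, 17.1 and 34.6 bp at +3, 14.96 and 25.4 bp at +4, 19.9 and 28.2 bp at +5 and 21.5 and 23.2 bp at +6. Occupancy at its +2, +3 and +4 was 74.7, 102 and 135 in WT and 29.9, 50.6 and 42.8 in ioc3Δ. All dyads of RTC2 stayed within 12 bp of their WT position, so the array kept its place while its inner nucleosomes became less defined. In RCI50 (YKL133C) the SD increase grew from 2.05 bp at +1 through 3.05, 5.42 and 6.80 bp to 13.7, 18.6 and 15.6 bp at +5, +6 and +7. It then shrank to 8.08 and 4.50 bp at the last calls. The final call had an ioc3Δ occupancy of 18.3 and was not eligible.

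MEC1 (YBR136W) held 4 blurred calls among 38, all in its first 1200 bp. Its increase grew from 0.852 bp (+1) through 8.50 bp (+2) and 11.2 bp (+3) to 17.6 bp (+4), and was 14.3 bp at +5. From +9 to +13 the differences ran from −7.09 to 3.66 bp. The highest of these was at +11, where the ioc3Δ occupancy of 12.2 was below the minimum for eligible calls. PSD2 (YGR170W), a phosphatidylserine decarboxylase, had 4 among 17, at +2 (16.8 to 32.4 bp), +3 (15.3 to 27.4 bp), +5 (20.1 to 34.4 bp) and +6 (20.0 to 36.6 bp). NPR1 (YNL183C), a kinase that controls nutrient permeases, had 4 among 12, of which those at +2 and +5 gained 10.5 and 14.9 bp and those 1791 and 1968 bp from the start codon 11.8 and 10.2 bp. KRE5 and IML1, a regulator of TORC1 signalling, held 3 each, among 17 and 25 eligible calls.

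**Figure D3:**
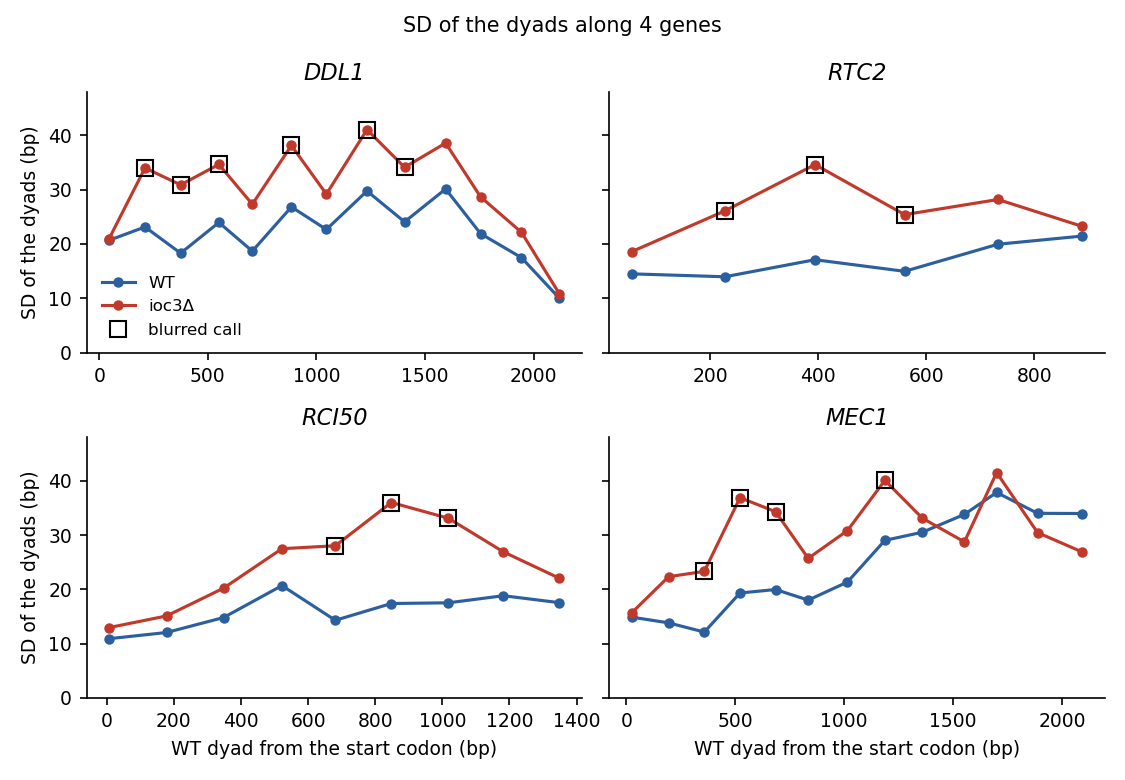
SD of the dyads (y axis, bp) at each call of DDL1, RTC2, RCI50 and MEC1 against the distance of the WT dyad from the start codon (x axis, bp; MEC1 to 2200 bp), for WT (blue) and ioc3Δ (red), with squares around blurred calls. The lines lie together at the first call and separate over the next few, with a largest gap of 18.6 bp in RCI50.

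Across all genes the neighbours of blurred nucleosomes were less sharp as well. The next call upstream had a median SD increase of 5.16 bp (2.78 to 7.68, n = 755) and the next downstream 5.15 bp (2.63 to 7.98, n = 691), where the neighbours of all eligible calls gave 2.59 and 2.68 bp. These neighbours were not matched by position. At +3 to +6, where 500 of the blurred calls lay, all eligible calls gained a median of 3.76 bp. At distances of 2, 3 and 4 calls the medians upstream were 4.07, 3.47 and 3.10 bp and downstream 4.40, 3.39 and 2.95 bp. The median increase thus became smaller with distance on both sides. At 4 calls it was still above that of all eligible calls, which was 2.36 bp upstream and 1.94 bp downstream. Of the next calls upstream 13.1% were blurred themselves and of the next downstream 14.3%, against 2.34% and 2.56% beside all eligible calls. At 2, 3 and 4 calls the blurred shares were 6.23%, 4.34% and 6.08% upstream and 6.82%, 4.73% and 5.75% downstream. For all eligible calls they were 2.18% and 2.06% at 4 calls. Still, 761 blurred calls had no blurred neighbour, 72 pairs and 14 runs of 3 were found, and no longer run occurred. The 3 runs with the largest summed increase were in RCI50, MEC1 and IML1. Whether a fragment between adjacent calls entered both of them was not tested.

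**Figure D4:**
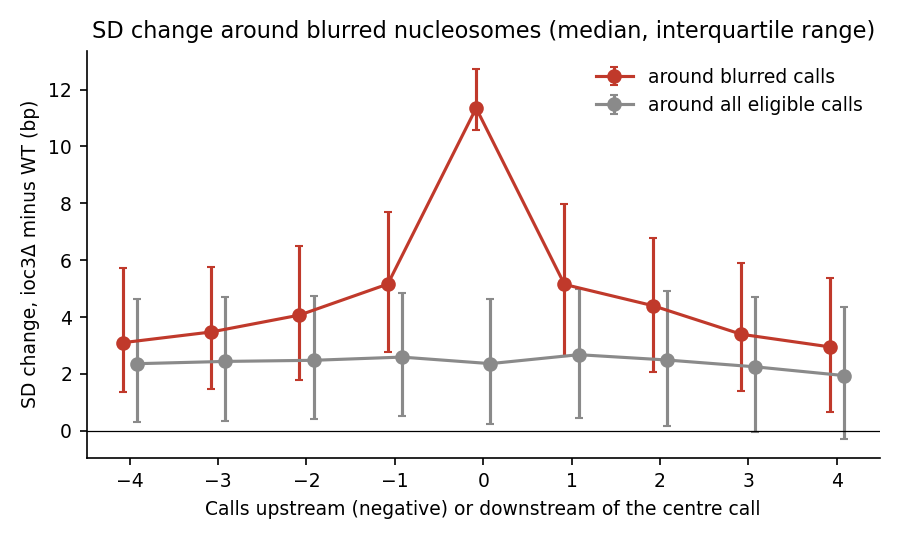
SD change from WT to ioc3Δ (y axis, bp; median, with the interquartile range as bars) at the blurred call (0) and up to 4 calls upstream (negative) or downstream (x axis), for blurred calls (red) and all eligible calls (grey) in 1 gene, set slightly apart for clarity. The red points fall from 11.3 bp at the centre to about 5 bp at the next calls. At 4 calls they lie at about 3 bp and the grey ones at about 2 bp.

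Spacing around the blurred nucleosomes was less even in ioc3Δ. In WT 159 of them (16.8%, against 19.6% of all eligible calls) had another call within 150 bp, and in ioc3Δ 401 (42.3% against 27.7%). No 2 calls of a strain were closer than 148 bp, so these neighbours stood at or near the closest distance that occurs. The median distance to the next call upstream went from 167 bp (159 to 178) in WT to 164 bp (151 to 182) in ioc3Δ, and to the next downstream from 170 bp (162 to 180) to 166 bp (152 to 184). The median thus changed little while the range of distances widened. Over all eligible calls the interquartile ranges widened as well. Upstream they were 161 to 194 bp in WT and 159 to 201 bp in ioc3Δ. Downstream they were 161 to 193 bp and 158 to 200 bp. Of the 947, 513 (54.2%, against 66.8% of all eligible calls) had all neighbours over 150 bp away in both strains.

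Nearly equal parts of the set moved and stayed. The dyad of 476 blurred calls (50.3%, against a background of 26.9%) lay 10 bp or more from its WT position, and that of 140 (14.8% against 5.22%) 40 bp or more. The dyad and the mean dyad both moved by less than 10 bp in 330 (34.8% against 64.2%). Pairing required overlap, which limits the shifts, and the largest was 72 bp. The median size of the shift was 10 bp, against 4 bp over all eligible calls. In ioc3Δ the call was also less symmetric, with a median distance of 6 bp between the dyad and the mean of the dyads, against 3 bp in WT. Over all eligible calls these were 4 and 3 bp.

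In the direction of transcription, more of the blurred dyads moved downstream than upstream. Of the 902 in 1 gene, 58.2% had moved downstream (all eligible calls 52.0%) and 38.0% upstream (41.1%), with a median shift of 3 bp (−5 to 14) against 1 bp (−4 to 6) over all eligible calls. A shift of 10 bp or more downstream was found in 284 (31.5%, against a background of 15.3%) and upstream in 161 (17.8% against 12.5%). The direction depended on the place. In the first 1000 bp of genes 67.2% of 676 moved downstream, with a median of 5 bp. Beyond it 65.0% of 226 moved upstream, with a median of −4.5 bp. The other eligible calls had the same signs, with 62.4% downstream and a median of 2 bp in the first 1000 bp, and 57.0% upstream and a median of −2 bp beyond it.

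By position, the median shift of blurred calls rose from 6 bp (+1) through 7 bp (+2) to 8 bp (+3), was 5 bp for both +4 and +5 and 3 bp for both +6 and +7, and was −2 bp for +8. The other eligible calls had 2, 4, 4, 3, 1, 0, −1 and −1.5 bp at the same positions. Blurred nucleosomes were thus further downstream than the rest from +1 to +7, with wide and overlapping ranges at each position. The share of dyads that lay downstream was close to that of all eligible calls at +2 (76.4% against 80.7%), +3 (80.5% against 75.5%), +4 (67.1% against 65.2%) and +8 (42.9% against 37.8%). It was higher in blurred calls at +5 (74.1% against 55.1%), +6 (58.8% against 47.8%) and +7 (57.1% against 44.2%). The gap at +1 was smaller (77.8% of 18 blurred calls against 71.3%). Only calls in 1 gene have a direction, so the shifts at +1 cover fewer than the 26 blurred calls counted there. At +8 they cover 28.

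**Figure D5:**
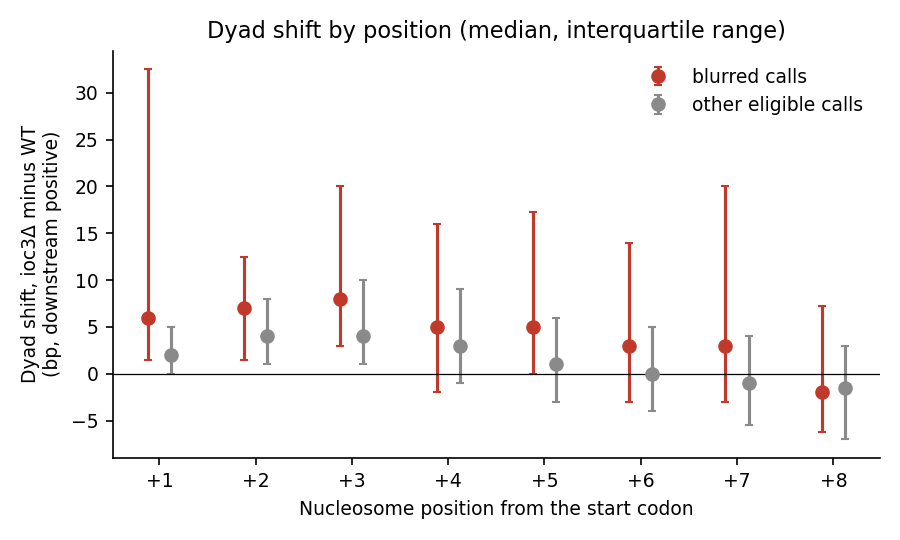
Shift of the dyad from WT to ioc3Δ (y axis, bp, downstream positive; median, with the interquartile range as bars) by position from the start codon (x axis) for blurred calls (red) and other eligible calls (grey) in 1 gene. The red medians run from 8 bp at +3 to −2 bp at +8 and the grey ones from 4 bp to −1.5 bp, with overlapping ranges.

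Most blurred nucleosomes had less signal in ioc3Δ than in WT. Their median occupancy was 50.8 in WT (37.6 to 76.6) and 35.3 in ioc3Δ (26.1 to 53.0). The ratio of ioc3Δ to WT, relative to the median ratio of 0.892 over all paired calls, was 0.805 (0.675 to 0.977) in blurred calls and 1.02 in all eligible ones. It was 1.5-fold or more lower in 229 (24.2%, against a background of 7.59%) and 1.5-fold or more higher in 25 (2.64% against 11.7%). Without that scaling, 828 (87.4%, against 62.4% of all eligible calls) had a lower occupancy in ioc3Δ than in WT. The ratio had a median under 1 at every position, with values from 0.734 at +10 to 0.854 at +3. A lower share of fragments within a call and fewer nucleosomes at the site cannot be told apart in these values. The exceptions included AIM3 at +6, with occupancies of 2567 and 3194 and SDs of 25.8 and 38.0 bp, and SDS24 at +9, with 1667 and 1815 and SDs of 24.1 and 34.6 bp. Both were named after their values were seen, as the blurred calls with the highest occupancy.

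The 43 blurred calls outside coding sequence had a median WT SD of 24.7 bp, against 19.6 bp for all 3321 eligible calls there, and a median occupancy ratio of 0.728. They were thus fuzzier in WT than the typical call of their place, as were the blurred calls at +1 (21.4 against 17.5 bp). The largest increases among them were at chromosome XV dyad 808215 (24.8 to 40.9 bp, moved by 53 bp), chromosome XV dyad 277043 (26.4 to 41.7 bp, moved by 10 bp), chromosome I dyad 166672 (25.8 to 39.9 bp, moved by 30 bp) and chromosome VII dyad 592942 (27.1 to 41.1 bp, moved by 40 bp). At the last of these the occupancy went from 109 to 209, and at the one on chromosome I from 58.4 to 26.5. These 4 sites thus ran in both directions in occupancy.

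Base composition, which played no part in the choice, differed by little. The median GC content of the 150 bases around the WT dyad was 38.7% (36.0 to 41.3) in blurred calls and 40% (37.3 to 43.3) in the other eligible calls. Blurred calls had the lower median GC at each of the first 8 positions, for example 36.7% against 39.3% at +1 and 38.3% against 40.7% at +4, where the second value is that of all eligible calls. A run of AAAAAA or TTTTTT was in 22.2% of the blurred windows and 20.1% of the others. By position the shares were further apart at +1 (42.3% of 26 blurred calls against 27.4% of all eligible ones) and +7 (26.5% of 49 against 18.9%), and at +5 the blurred calls had the lower one (14.5% against 17.4%). The interquartile ranges of GC overlapped in part.

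Blurred calls were also counted in 13 groups of genes, against 2.13% of all eligible calls in 1 gene. Among the genes of the chromatin machinery, subunits of SWR1 and NuA4, which exchange and acetylate histones, held 8 of 200 eligible calls (4%). EAF3, a chromodomain subunit of NuA4, had the largest increase of them (18.9 to 36.9 bp at +3, dyad 57 bp downstream), and EPL1 (23.3 to 37.0 bp) and YNG2 (15.9 to 28.7 bp at +5) followed. Remodeler subunits held 3 of 227 (1.32%), with 2 in ITC1, the partner of Isw2 (20.1 to 32.8 bp at +5 and 19.1 to 29.5 bp at +3), and 1 in RSC2 (26.3 to 38.0 bp). Transcription elongation factors held 2 of 144 (1.39%), in the histone methyltransferase gene SET1 (24.3 to 37.3 bp at +4) and in RTF1 (15.6 to 26.4 bp at +3). RNA polymerase II subunits held 0 of 71 and histone genes 0 of 22.

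Genes that respond to phosphate and galactose held 8 of 151 (5.30%), among them the acid phosphatases PHO11 (24.2 to 38.0 bp at +4) and PHO12 (23.6 to 36.5 bp at +4) and GAL7 of galactose metabolism (22.7 to 35.9 bp). PHO11 and PHO12 are near-identical, their values were close, and 5 of the 8 calls were theirs, so they may count the same reads. Heat shock chaperones held 5 of 193 (2.59%), with HSP42 at +2 (18.8 to 33.1 bp) and +3 (22.5 to 34.4 bp) and SSA1 at the top. Purine and GTP synthesis held 3 of 163 (1.84%), with ADE6 at +3 (19.6 to 31.1 bp) and GUA1 (36.2 to 46.4 bp).

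The remaining groups held between 0 and 4 blurred calls each. Cytosolic ribosomal protein genes held 4 of 462 (0.866%), RPL22A with the largest increase (19.8 to 31.7 bp at +2), the TCA cycle 1 of 138 (LPD1, 29.3 to 40.6 bp), aminoacyl-tRNA synthetases 1 of 197 (ALA1, 15.1 to 26.5 bp at +3), glycolysis 0 of 118 and cell wall glycoproteins 0 of 155. The median WT SD of the eligible calls was 33.1 bp in the glycolysis group and 30.7 bp in the cell wall group, above the 25.5 bp of all eligible calls. Most groups lay above that value, SWR1 and NuA4 (27.5 bp) and heat shock chaperones (28.7 bp) among them. Only the phosphate and galactose genes (24.4 bp) and the elongation factors (25.2 bp) lay below it. Whether the WT SD bears on these counts was not tested. Among single genes of interest in ISW1a work, MET16, which encodes an enzyme of sulfate assimilation, had 1 blurred call among 4, at +4 (19.2 to 30.5 bp, occupancy 33.8 and 21.7). ISW1, YAF9, HSP12, HSP26 and IMD2 had none, and their largest increases were 8.42, 6.88, 0.783, 8.35 and 3.09 bp.

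Side by side with the table labelled ioc3ΔcHLB, which shares the WT calls, 919 of the 947 could be matched by their WT dyad. Their median SD increase was 11.4 bp (10.2 to 12.8) in that table, where all eligible calls gave 3.86 bp. Their median scaled occupancy ratio there was 0.793. The tables were not the same, with equal occupancies to within 1% in 30.9% of the blurred calls and the same mutant dyad in 8.49%. Because IOC3 was nearly without signal in both and the WT calls are shared, these values were not used as a second measurement.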

How the data were processed

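Each strain had 3 samples, which the authors merged before they called nucleosomes. Reads were mapped by the authors to sacCer3 with Bowtie (Bowtie2 version 2.0 per the labels). They deposited, for each call, its position, an SD of the dyads (a score of fuzziness, in bp) and an occupancy (a signal scaled to mean coverage). WT and mutant calls were paired by the authors by overlap, row by row.

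Of 53840 rows, 1911 repeats were dropped, as were 12 rRNA locus calls. Every occupancy was a whole multiple of 0.138 (WT) or 0.199 (ioc3Δ), to within 1%, and this step was taken as 1 fragment. The counting error of an SD was taken as the SD divided by the square root of 2n, for n fragments. Genes were taken from RefSeq R64, with start to stop codon as the gene, and successive positions were 110 to 230 bp apart. Neighbours were the adjacent eligible calls of the same gene, within 230 bp per step. Transcription start sites were not used here.

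The members, gene lists and alternatives were chosen with earlier results of these data known. Named calls were the 12 with the largest increase in 1 gene, the 8 genes with the most blurred calls, the 5 with the lowest WT SD, 4 outside genes, 2 on each side of the limit, genes the paper names, up to 3 calls per list and the 3 longest runs. Symbols matched for 11 of 12 RNA polymerase II, 20 of 22 cell wall, 18 of 20 elongation and 19 of 20 purine genes, and for every gene of the other lists. The merged values allow no test across samples. The calculation was tested on simulated data. The work was done in Python 3.11.15 with pandas 2.3.3, numpy 2.4.6, matplotlib 3.10.9 and scipy 1.17.1.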

Additional observations from a re-analysis of the deposited data

Results flagged for a closer look

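The rRNA locus on chromosome XII was left out of the choice, but 12 paired calls there appear in the tables although the methods state that its reads were filtered out. None of these 12 calls gained 10 bp or more in SD, and their changes ran from −7.47 to 4.76 bp.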

How the results depend on the processing

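The number of blurred calls (947) and the shares at +1 and +4 depended on the limits, as their construction implies, while +4 exceeded +1 under each alternative run, the median shift stayed downstream and the median occupancy ratio stayed under 1. With an occupancy minimum of 10 the share at +4 was 5.41% and the occupancy ratio 0.784. With a minimum of 40, 373 calls were left, with 0.232% at +1, 2.40% at +4, a ratio of 0.872 and an SD increase of the next calls of 5.56 bp. An SD limit of 8 bp gave 2595 calls, 1.84% at +1, 12.3% at +4, a ratio of 0.838 and neighbours at 4.72 bp. A limit of 15 bp gave 60 calls, a WT SD of 22.5 bp, 0.0224% at +1, 0.389% at +4, a shift of 4.5 bp, a ratio of 0.744 and neighbours at 6.98 bp. With neighbours over 150 bp away 513 calls were left, with a WT SD of 22.7 bp and neighbours at 5.60 bp. Relative to the median SD change, an alternative added after the data were seen, 275 calls were left, with a WT SD of 22.7 bp, 0.157% at +1, 1.58% at +4 and neighbours at 5.71 bp. The mean dyad gave a median shift of 5 bp. The occupancy ratio was 0.718 unscaled and 0.607 when scaled by summed occupancies. Keeping repeated rows gave 966 calls, and taking the WT call nearest to the start codon as +1 gave the same shares by construction, since calls are at least 148 bp apart. No paired analysis was possible because the deposited values merge the samples of a strain, which also prevents leaving out single samples. Depth limits membership: calls of low occupancy carry larger errors, and a change of 10 bp was set against counting error only.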
